A study of Mus musculus with 6 samples.

Results

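Transcripts of 8 genes that deliver cholesterol to the mitochondrion, start progesterone synthesis or inactivate progesterone were followed in mouse cumulus-oocyte complexes across ovulation. The genes were Star, Stard4, Scarb1, Tspo, Cyp11a1, Fdx1, Fdxr and Akr1c18. They were chosen by name, and every probe set of the array whose single gene symbol was one of these names was taken. This gave 17 of 45037 probe sets and 7 of the 18193 genes that the platform table names. Fdxr has no probe set in that table and was not analysed here.

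In such a complex, specialised granulosa cells called the cumulus surround the oocyte. All complexes came from immature wild type females given equine chorionic gonadotropin (eCG), which makes follicles grow, for 48 h. The groups were no hCG, 8 h after human chorionic gonadotropin (hCG, which triggers ovulation) and 16 h after hCG, each with 2 arrays made from pooled complexes. The labels' protocols give the ovary as the source of complexes without hCG and the oviduct as the source at 8 h and 16 h, so collection site and hormone cannot be told apart. Both labels leave a doubt about the groups, since ovulation in mice is usually not complete by 8 h, and the protocol calls the complexes without hCG expanded, a state that normally follows the ovulatory signal. Neither the mouse strain nor the number of animals in a pool was given in the sources used here, and nothing says that the pools of a group came from separate animals, so the p-values measure the spread of these samples alone, which may be technical.

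Steroid-making cells take up cholesterol from lipoproteins, partly through the HDL receptor encoded by Scarb1, and carry it through the cytosol with carriers such as the product of Stard4. The Star protein then moves cholesterol into the mitochondrion, where the enzyme encoded by Cyp11a1 cuts off its side chain to make pregnenolone, with electrons passed from ferredoxin reductase (Fdxr) through ferredoxin (Fdx1). A dehydrogenase turns pregnenolone into progesterone, which granulosa cells make in large amounts after the ovulatory surge, and the reductase encoded by Akr1c18 converts progesterone into a weakly active product. Tspo encodes a cholesterol-binding protein of the outer mitochondrial membrane, and its need in steroid synthesis is debated.

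Values are log2 intensities, on which a difference of 1 is a doubling. Array medians lay between 6.14 and 6.27, and all array pairs of a group correlated at r of at least 0.991, against at most 0.979 for arrays of different groups (across all probe sets, which are not independent replicates). A probe set was called dim and left untested where its 6 values averaged under 5.62, the 40th percentile of such averages. Where a gene had more than 1 probe set, the brightest stands for the gene unless another is named. Changes are differences of group means ± SE from limma, and called genes are those with an adjusted p under 0.05. The 3 groups were compared pairwise, so every comparison shares arrays with the others.

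All 7 measured genes rose by 8 h after hCG, but they went different ways afterwards. Star and Stard4 fell again between 8 h and 16 h, Cyp11a1, Fdx1 and Scarb1 had no called change in that interval, and Tspo and Akr1c18 rose further. By 16 h, 6 of the 7 genes were above their level without hCG, and Stard4 was not. At 8 h, 7 of 7 genes were called higher and 0 lower, where 16.9% of all 13559 genes tested were higher and 20.5% lower. From 8 h to 16 h, 2 of 7 were called higher and 2 lower, against 11.8% and 9.12% of all genes. Against no hCG, 6 of 7 were higher at 16 h and 0 lower, where 20.8% of all genes were higher and 20.8% lower. At an unadjusted p under 0.05 in the same limma fits, 0 members were lower at 8 h or at 16 h against no hCG. The median change of the 7 genes was 1.89 at 8 h, 0.19 from 8 h to 16 h and 2.26 at 16 h against no hCG, and over all genes tested the medians were −0.02, 0.01 and −0.02.

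**Figure D1:**
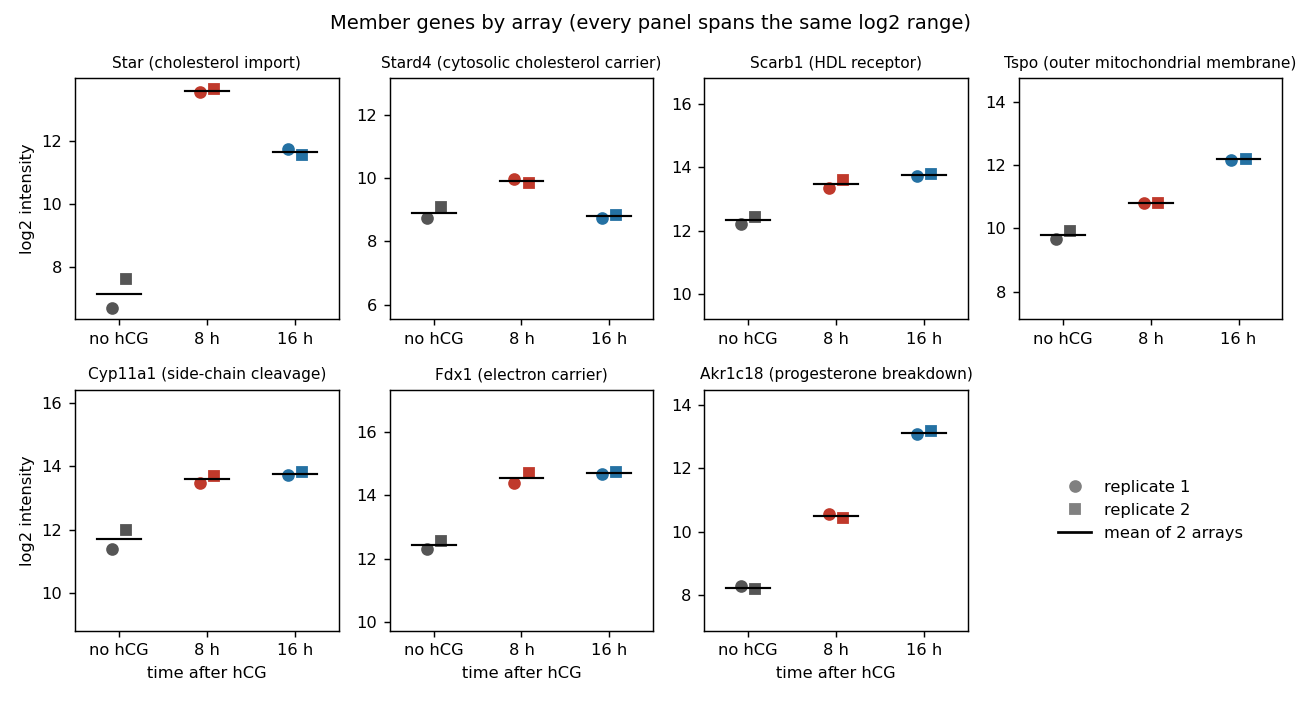
Log2 intensity of the brightest probe set of each of the 7 measured genes (vertical axis) in the 3 groups, with circles for replicate 1, squares for replicate 2 and a line at the mean of the 2 arrays. Star peaks at 13.53 and 13.63 at 8 h, and Akr1c18 climbs from 8.28 and 8.18 to 13.09 and 13.17 at 16 h.

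Star had the largest rise of the members. Its arrays read 6.71 and 7.62 without hCG, 13.53 and 13.63 at 8 h, and 11.74 and 11.56 at 16 h. The groups did not overlap, and the pair without hCG, 7.16 ± 0.65 (SD, n = 2), was spread more widely than the pairs at 8 h (13.58 ± 0.07) and 16 h (11.65 ± 0.13). The rise at 8 h was 6.41 ± 0.26 (85.3-fold, adjusted p = 3.8e-07). From 8 h to 16 h Star fell by 1.93 on the log2 scale (SE 0.26, adjusted p = 0.000792), to a level still 4.49 ± 0.26 (22.4-fold) above that without hCG (adjusted p = 1.38e-06).

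The 3 Star probe sets gave the same order of groups but not the same size of change. The probe set 1418728_at read 6.51 and 6.91 without hCG, 12.80 and 12.51 at 8 h and 10.24 and 10.23 at 16 h, a rise of 61.8-fold at 8 h. With 1418729_at the arrays were at 7.15 and 7.73, then 11.95 and 12.03, then 10.31 and 10.16, and the rise was 23.4-fold. Each of these probe sets was called higher at 8 h, lower at 16 h than at 8 h, and higher at 16 h than without hCG. The direction of the Star time course therefore held across its probe sets, whereas its 85.3-fold rise and its 22.4-fold level at 16 h are the values of 1 of them. At 16 h against no hCG, 1418728_at gave 11.5-fold and 1418729_at 6.93-fold. With the mean of the 3 probe sets the log2 change was 5.64 at 8 h and 3.60 at 16 h, both against no hCG.

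Stard4, whose product carries cholesterol between membranes in the cytosol, had a pulse at 8 h. It read 8.73 and 9.08 without hCG, 9.96 and 9.86 at 8 h, and 8.75 and 8.84 at 16 h. The 8 h arrays lay above all others, while the 16 h arrays lay within the range of those without hCG. Stard4 rose by 1.00 ± 0.17 (2.00-fold, adjusted p = 0.00135) and then fell by 1.12 on the log2 scale (SE 0.17, adjusted p = 0.0015). At 16 h the difference from no hCG was −0.12 ± 0.17 (adjusted p = 0.648), with a 95% confidence interval from −0.50 to 0.26. The other probe sets, 1455011_at and 1429239_a_at, rose by 1.05 and 1.46 and fell by 1.12 and 1.28, all called, and at 16 h stood at −0.07 and 0.18 against no hCG, neither called.

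Star and Stard4 encode proteins with the same kind of lipid-binding domain, the START domain. Both were called higher at 8 h and lower from 8 h to 16 h. They differed at 16 h, where Star was 6.93-fold to 22.4-fold above its level without hCG, depending on the probe set, and the Stard4 interval included no change. The difference between the time courses of these genes was not tested.

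Scarb1, the receptor for cholesterol esters carried by HDL, rose at 8 h and had no called change after that. Its arrays read 12.21 and 12.43 without hCG, 13.35 and 13.60 at 8 h, and 13.71 and 13.80 at 16 h. The groups did not overlap in any pair of times. The rise at 8 h was 1.15 ± 0.17 (2.22-fold, adjusted p = 0.000491). The later difference, 0.28 ± 0.17, was not called (adjusted p = 0.314, 95% confidence interval −0.09 to 0.65), and at 16 h Scarb1 stood 1.43 ± 0.17 above no hCG (adjusted p = 0.000107). The probe sets 1416050_a_at and 1437378_x_at rose by 1.05 and 1.28 at 8 h, with 0.30 and 0.27 from 8 h to 16 h, the last 2 not called. All 3 probe sets thus read higher at 16 h than at 8 h by a margin that did not pass the test.

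Tspo rose in both intervals. It read 9.66 and 9.92 without hCG, 10.78 and 10.80 at 8 h, and 12.15 and 12.20 at 16 h, with no overlap between groups. The first step was 1.01 ± 0.16 (2.01-fold, adjusted p = 0.000831) and the second 1.38 ± 0.16 (2.60-fold, adjusted p = 0.000291). Against no hCG the 16 h level was 2.39 ± 0.16 higher (5.22-fold, adjusted p = 2.91e-06). The other Tspo probe sets, 1438948_x_at and 1456251_x_at, gave 1.16 and 1.04 for the first step and 1.33 and 1.42 for the second, so the 3 probe sets followed each other closely.

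**Figure D2:**
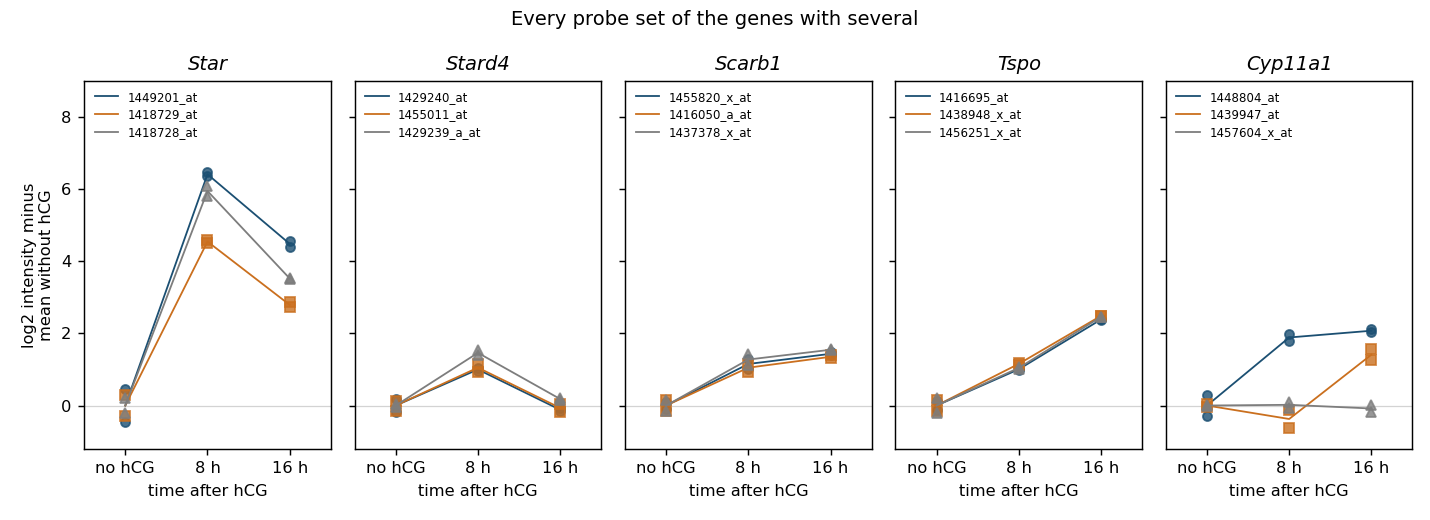
Log2 intensity minus the mean without hCG (vertical axis) for every probe set of the 5 genes with several, with points for arrays and lines through group means. The probe sets of Stard4, Scarb1 and Tspo run together, those of Star differ in size of change, and those of Cyp11a1 part, with 1448804_at higher by 1.89 at 8 h and 1439947_at rising after 8 h.

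Cyp11a1 and Fdx1 encode the side-chain cleavage enzyme and its electron carrier. By the brightest probe set of each gene, their time courses were closer to each other than those of any other pair of members. After each gene was centred on its own mean, their root mean square distance over the 6 arrays was 0.14, against 0.34 for the next pair, Scarb1 and Cyp11a1, and 2.39 for the farthest, Star and Stard4. All of these distances are descriptions over arrays that the genes share. Another Cyp11a1 probe set, 1439947_at, took a different course, given below, and entered none of them.

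Cyp11a1 read 11.40 and 11.99 without hCG, 13.48 and 13.68 at 8 h, and 13.73 and 13.81 at 16 h. The later groups lay well above the first, and both 16 h arrays were above both 8 h arrays by a small margin. Cyp11a1 rose by 1.89 ± 0.21 at 8 h (3.70-fold, adjusted p = 8.67e-05). From 8 h to 16 h the difference was 0.19 ± 0.21 (adjusted p = 0.641, 95% confidence interval −0.28 to 0.65), which leaves room for a further rise of less than a doubling. At 16 h it was 2.07 ± 0.21 above no hCG (adjusted p = 4.05e-05).

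A second Cyp11a1 probe set, 1439947_at, did not share this course. It read 6.40 and 6.47 without hCG, 5.82 and 6.32 at 8 h, and 7.99 and 7.70 at 16 h. Its difference at 8 h was −0.37 ± 0.20 and was not called (adjusted p = 0.187), whereas from 8 h to 16 h it rose by 1.78 ± 0.20 (adjusted p = 0.000249). The remaining probe set, 1457604_x_at, was dim and untested, with values from 5.28 to 5.55. With the mean of the 3 probe sets in place of the brightest, Cyp11a1 rose by 0.51 at 8 h (adjusted p = 0.0268) and by 0.62 from 8 h to 16 h (adjusted p = 0.0194). That Cyp11a1 had no called change after 8 h is thus the reading of 1 probe set, and the difference between the probe sets was not tested.

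Fdx1 had a single probe set. It read 12.32 and 12.57 without hCG, 14.38 and 14.72 at 8 h, and 14.67 and 14.74 at 16 h, so the later groups overlapped each other and not the first. Fdx1 rose by 2.11 ± 0.18 at 8 h (4.31-fold, adjusted p = 1.72e-05), and from 8 h to 16 h differed by 0.15 ± 0.18 (adjusted p = 0.656, 95% confidence interval −0.24 to 0.55). At 16 h it was 2.26 ± 0.18 above no hCG (adjusted p = 8.45e-06). Only 0.18% of probe sets had a mean at or above that of Fdx1, and the highest value in the table was 15.53, so readings after hCG lay near the top of the scale, and whether this limits the reading of a further rise was not tested.

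**Figure D3:**
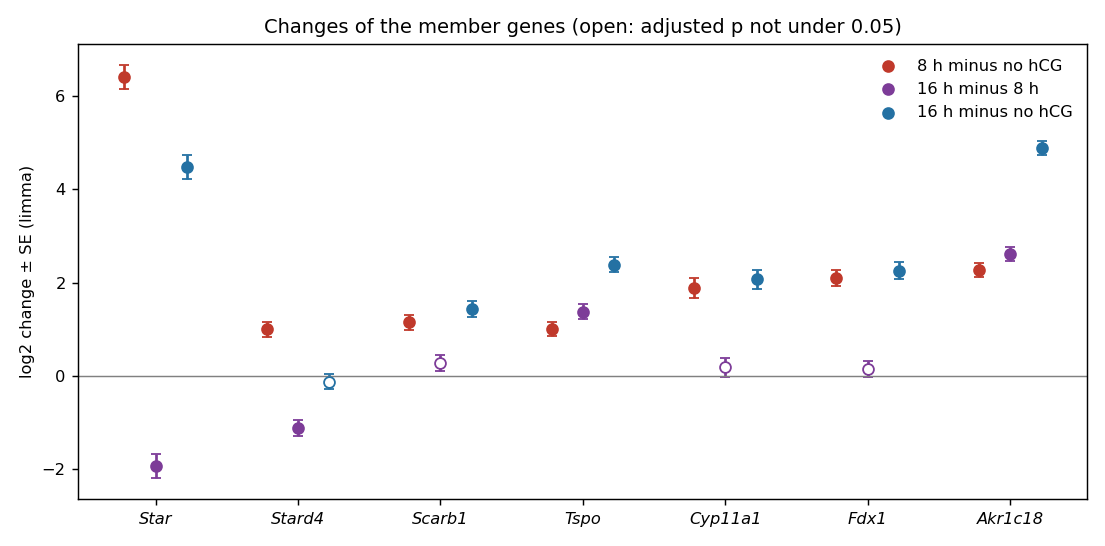
Log2 change ± SE (vertical axis) of the 7 measured genes in the 3 comparisons, with filled points for called changes and open points for changes not called. The points for 8 h against no hCG all lie above 0, and those for 16 h against 8 h run from −1.93 for Star to 2.62 for Akr1c18.

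Akr1c18, whose enzyme inactivates progesterone, rose in both intervals and by more in the second. It read 8.28 and 8.18 without hCG, 10.57 and 10.45 at 8 h, and 13.09 and 13.17 at 16 h. The groups lay far apart, and the arrays within each were close. The first step was 2.28 ± 0.15 (4.85-fold, adjusted p = 4.35e-06), the second 2.62 ± 0.15 (6.15-fold, adjusted p = 8.5e-06), and the whole rise 4.90 ± 0.15 (29.8-fold, adjusted p = 7.92e-08). The 2 steps were not tested against each other. From 8 h to 16 h Akr1c18 and Star were both called, in opposite directions.

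Of the other listed genes of the Akr1c family, 4 were tested, and at 8 h 3 of them were called lower, where 20.5% of all genes were. Akr1c6, Akr1c12, Akr1c19 and Akr1c20 were dim and untested. Akr1c14, which reduces progesterone metabolites, fell by 1.92 on the log2 scale (SE 0.19, adjusted p = 4.63e-05) and then rose by 1.24 ± 0.19 (adjusted p = 0.00164). Akr1c13 fell by 1.36 (SE 0.20, adjusted p = 0.000636) and rose by 0.68 ± 0.20 (adjusted p = 0.0443). Akr1c21 fell by 0.68 at 8 h (adjusted p = 0.0136), and its later difference of 0.42 was not called. Akr1cl had a difference of 0.07 at 8 h that was not called, and rose by 0.73 from 8 h to 16 h (adjusted p = 0.00743). Akr1c21 and Akr1cl were singled out after their values were seen. Genes of this family are alike in sequence, so a probe set can also read a relative.

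The stretches before the start sites are shown for Cyp11a1 and Fdx1, whose brightest probe sets moved together, and for Akr1c18, whose course stood apart. They are from RefSeq (build GRCm38.p6), whose table held 4 of the 8 genes (Cyp11a1, Fdx1, Fdxr and Akr1c18) and not Star, Stard4, Scarb1 or Tspo. Each is the 250 bases before a transcript's start, 5′ to 3′ on the gene's strand. Cyp11a1 has 2 listed starts on the plus strand of chromosome 9, chr9:57997774-57998023 and chr9:58014702-58014951, and the table does not tie a start to a probe set. The Fdx1 stretch is chr9:51963603-51963852 and that of Akr1c18 is chr13:4150647-4150896, both on the minus strand. Capitals mark matches, on either strand, to 5 motifs that were chosen with the results known. These were the nuclear receptor half-site AGGTCA, the longer form CAAGGTCA of the steroidogenic factors Nr5a1 and Nr5a2 (which contains the half-site), the cAMP response half-site TGACG, the GATA site AGATAA and the C/EBP site TTGCNNAA.
Cyp11a1 upstream start: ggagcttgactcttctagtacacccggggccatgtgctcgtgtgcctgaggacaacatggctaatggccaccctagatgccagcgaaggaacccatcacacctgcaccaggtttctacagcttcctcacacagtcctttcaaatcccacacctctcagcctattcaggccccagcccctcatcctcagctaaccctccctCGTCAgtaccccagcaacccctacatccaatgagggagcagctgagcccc
Cyp11a1 downstream start: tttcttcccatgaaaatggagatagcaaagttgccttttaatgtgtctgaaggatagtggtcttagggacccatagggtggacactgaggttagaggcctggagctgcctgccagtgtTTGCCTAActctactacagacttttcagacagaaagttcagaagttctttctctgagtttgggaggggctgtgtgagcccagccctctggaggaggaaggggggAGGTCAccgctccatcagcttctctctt
Fdx1: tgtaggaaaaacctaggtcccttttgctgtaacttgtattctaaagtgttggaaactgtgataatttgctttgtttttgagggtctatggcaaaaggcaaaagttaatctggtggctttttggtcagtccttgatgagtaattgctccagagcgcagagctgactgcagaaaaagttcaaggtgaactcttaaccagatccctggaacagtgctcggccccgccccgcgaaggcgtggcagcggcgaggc
Akr1c18: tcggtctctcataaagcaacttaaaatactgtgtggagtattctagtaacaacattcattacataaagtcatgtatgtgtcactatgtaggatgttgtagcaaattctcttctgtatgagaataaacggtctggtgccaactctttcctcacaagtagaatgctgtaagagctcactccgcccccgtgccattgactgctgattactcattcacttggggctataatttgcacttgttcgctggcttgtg

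The downstream Cyp11a1 stretch holds AGGTCA, beginning 28 bases before the start, and a C/EBP match beginning 132 bases before it. The upstream Cyp11a1 stretch holds the cAMP half-site on the other strand, beginning 50 bases before the start. The Fdx1 and Akr1c18 stretches hold none of the 5 motifs. Over all 32851 promoter stretches of this length, 14% hold AGGTCA, 1.33% CAAGGTCA, 17.8% TGACG, 9.99% AGATAA and 9.56% TTGCNNAA. A match describes letters in these windows and does not show a bound site.

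The genes with the most similar courses were sought for each member among the other 13552 genes tested, by the root mean square distance of centred log2 values over the 6 arrays. Star was nearest to Prkg2, a cGMP-dependent kinase gene, at 0.35, then to the cumulus matrix gene Ptx3 at 0.44 and the leptin receptor gene Lepr at 0.48. Akr1c18 was nearest to Mbp, the growth factor gene Ptn and the matrix gene Tnc, at 0.26, 0.28 and 0.30. Within a distance of 0.5, Star had 4 genes and Akr1c18 had 22, against 427 for Fdx1, 467 for Tspo, 602 for Cyp11a1, 2635 for Scarb1 and 3189 for Stard4. Few genes thus had a course like that of Star or Akr1c18, while genes with small changes have many near neighbours by this measure.

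The nearest gene to Fdx1 was Abca1, which exports cholesterol from cells, at 0.06, followed by Hipk1 and Cobll1 at 0.12 each. Cyp11a1 was nearest to Ro60 (0.05), Plpp3 (0.08) and Cobll1 (0.10). Scarb1 was nearest to Ugdh (0.05), which makes a hyaluronan precursor, and then to Tmem127 and Smim10l1 at 0.07 each. Tspo was nearest to Deptor at 0.06, Arrdc4 at 0.11 and Pex5 at 0.13. Stard4 was nearest to Zfp354c and Adnp2 at 0.08 each, and to Nhsl2 at 0.10. Nhsl2 read 5.51 without hCG and 5.60 at 16 h, under the dim limit, so it passed the filter only through its 8 h arrays.

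The rest of the pathway was read from 5 lists with 72 tested genes in all. At 8 h, 23 of the 72 (31.9%) were called higher and 21 (29.2%) lower, with a median change of 0.08, where 16.9% of all genes tested were higher and 20.5% lower. From 8 h to 16 h, 15 (20.8%) were higher and 11 (15.3%) lower, against 11.8% and 9.12% of all genes. That split turned when single arrays were left out, to 6 higher and 10 lower without replicate 1 at 8 h, 8 and 9 without replicate 2 at 8 h, and 7 and 9 without replicate 1 at 16 h. At 16 h against no hCG, 27 (37.5%) were higher and 15 (20.8%) lower, against 20.8% each of all genes. Of these 72 genes, Cyp11b1 and Pgr passed the filter only through their 8 h arrays. Their rises by 8 h and falls by 16 h were therefore partly built into the counts.

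Genes of cholesterol uptake, storage and egress were called higher at 8 h in 10 of 17 cases and lower in 5 (58.8% and 29.4%, against 16.9% and 20.5% of all genes; median 0.63). The caveola gene Cav1 rose by 3.34 ± 0.15 (adjusted p = 6.31e-07) and differed by 0.45 from 8 h to 16 h, which was not called. Stard5, another START domain gene, rose by 2.56 ± 0.15 (adjusted p = 2.56e-06) and fell by 1.96 on the log2 scale by 16 h (adjusted p = 3.37e-05). The lipoprotein receptor gene Lrp8 rose by 1.70 ± 0.16 (adjusted p = 3.76e-05) and fell by 2.04 (SE 0.16, adjusted p = 3.82e-05), and at 16 h its difference from no hCG, −0.34 ± 0.16, was not called (adjusted p = 0.135). Abca1 rose by 2.08 ± 0.18 (adjusted p = 2.41e-05) and differed by 0.07 afterwards, not called. In the later interval 6 of the 17 genes (35.3%) rose and 2 (11.8%) fell, against 11.8% and 9.12% of all genes. Those that fell were Stard5 and Lrp8.

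Among partners of mitochondrial cholesterol import, 4 of 12 (33.3%) rose and 2 (16.7%) fell at 8 h, with a median of 0.11. Over all genes 16.9% were higher and 20.5% lower. Acsl4, which activates arachidonic acid, rose by 2.81 ± 0.29 (adjusted p = 5.53e-05). Its arrays without hCG were far apart, at 8.62 and 9.59, against 11.68 and 12.16 at 8 h. Prkar1a, a regulatory subunit of protein kinase A, rose by 1.04 ± 0.16, and Dbi, an acyl-CoA-binding ligand of the Tspo protein, by 0.77 ± 0.17 (adjusted p = 0.000823 and 0.00579). Lonp1, a mitochondrial protease that degrades Star protein in the matrix, had 0.35 at 8 h, not called, and rose by 0.79 ± 0.15 from 8 h to 16 h (adjusted p = 0.00483). In that later interval 3 of 12 (25%) rose and 0 fell, against 11.8% and 9.12% of all genes. At an unadjusted limma p under 0.05, 4 rose and 1 fell.

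Of 12 other steroidogenic enzyme genes, 5 (41.7%) rose and 3 (25%) fell at 8 h (median 0.26), against 16.9% and 20.5% of all genes. From 8 h to 16 h 1 (8.33%) rose and 3 (25%) fell, against 11.8% and 9.12%. Cyp11b1, named after its values were seen, rose and then fell. It read 5.26 without hCG and 5.57 at 16 h, both under the dim limit of 5.62, and 6.48 at 8 h. It thus passed the filter only through its 8 h arrays, so its rise and fall were partly built into these counts. The androgen-forming gene Cyp17a1 fell by 2.30 on the log2 scale (SE 0.23, adjusted p = 5.03e-05), and the estrogen-forming gene Hsd17b1 fell by 1.67 at 8 h (SE 0.16, adjusted p = 3.73e-05) and 1.10 more by 16 h (adjusted p = 0.00116). Cyb5r3, a cytochrome b5 reductase gene, rose by 1.59 ± 0.16 (adjusted p = 5.29e-05). Hsd3b7, an enzyme gene of bile acid synthesis, fell by 0.62 and then rose by 1.49 ± 0.15 (adjusted p = 0.000126). Hsd3b1, named here for its place in the pathway after its values were seen, encodes the enzyme that turns pregnenolone into progesterone. It read 13.64 without hCG, 14.03 at 8 h and 13.93 at 16 h as group means, and none of its 3 changes was called (adjusted p = 0.0804, 0.75 and 0.183).

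Of 9 genes of steroid inactivation tested, 1 (11.1%) rose and 4 (44.4%) fell at 8 h, against 16.9% and 20.5% of all genes. Afterwards 4 (44.4%) rose and 1 (11.1%) fell, against 11.8% and 9.12%. The single riser at 8 h was the estrogen sulfotransferase gene Sult1e1 (7.93 ± 0.21, adjusted p = 5.65e-08), which then fell by 2.97 on the log2 scale (SE 0.21, adjusted p = 1.92e-05). Without hCG it read 5.71, next to the dim limit of 5.62, so the size of its rise is uncertain. Hsd11b2, which inactivates corticosterone, fell by 3.75 at 8 h (SE 0.21, adjusted p = 1.68e-06).

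Of 22 tested regulators of steroidogenic genes, 3 rose and 7 fell at 8 h (median −0.06), and 1 rose and 5 fell from 8 h to 16 h. The risers were 13.6% and 4.55% of the list, against 16.9% and 11.8% of all genes, and the genes that fell were 31.8% and 22.7%, against 20.5% and 9.12%. Crem, a cAMP-responsive factor gene, rose by 2.87 ± 0.15 (adjusted p = 1.3e-06) and fell by 0.83 (SE 0.15, adjusted p = 0.00439). The progesterone receptor gene Pgr rose by 2.83 ± 0.19 from a dim 5.10 and fell by 2.40 (SE 0.19, adjusted p = 3.25e-05) to a dim 5.52. Pgr passed the filter only through its 8 h arrays, so its rise and fall were partly built into the counts of this list. Nr0b1, a repressor of Nr5a1 activity, fell by 1.36 and again by 1.35 (SE 0.25 each, adjusted p = 0.00246 and 0.00521), and the FSH receptor gene Fshr fell by 1.18 and 2.36 (SE 0.15 each).

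**Figure D4:**
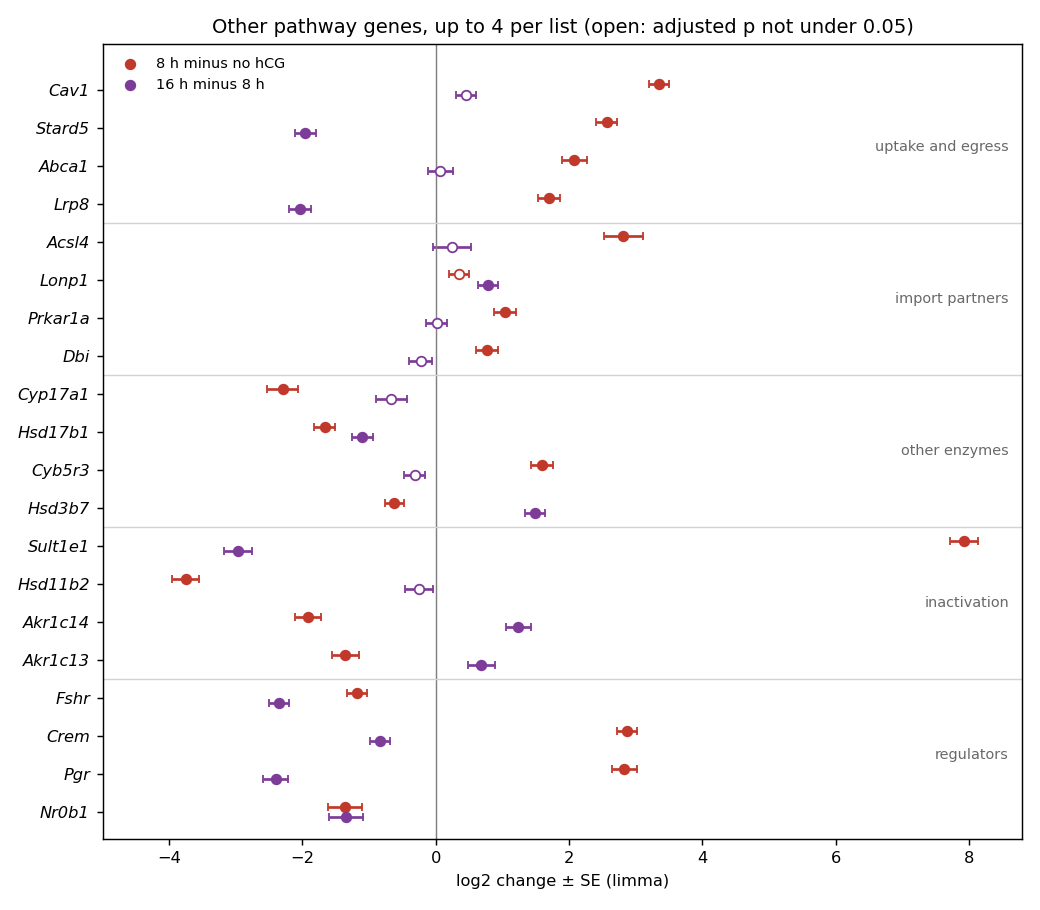
Log2 change ± SE (horizontal axis) of up to 4 genes from each of 5 pathway lists, at 8 h against no hCG and at 16 h against 8 h, with open points for changes not called. Stard5 and Lrp8 rise and then fall as Stard4 did, and Akr1c13 and Akr1c14 fall and then rise.

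Marker lists of 8 cell types were read beside these changes, including types that could have come along with the complexes. Oocyte markers were called lower at 8 h in 14 of 14 cases, against 20.5% of all genes. Their mean level went from 10.60 and 10.68 without hCG to 8.51 and 8.57 at 8 h and 8.25 and 8.53 at 16 h. From 8 h to 16 h the list split, with 5 of 14 called higher and 5 lower (11.8% and 9.12% of all genes). Gdf9, Bmp15 and Dazl rose by 1.16, 1.33 and 1.60, while Zp2 and Padi6 fell by 2.17 and 2.22 on the log2 scale. In pooled material, fewer cells of a type and less RNA per cell cannot be told apart. Granulosa and cumulus markers fell in 8 of 12 cases (66.7%) at 8 h, against 20.5% of all genes. Their mean levels were 11.95 and 12.15, then 10.78 and 10.99, then 10.20 and 10.35. Inha at 14.27 and Foxl2 at 12.31, both granulosa genes, and the oocyte gene Zp3 at 12.27 were bright without hCG, where granulosa and oocyte are the labelled material. Other genes of these lists were much lower without hCG. Amh stood at 7.13 and Gatm at 7.77 on the granulosa list, and Figla at 7.12 and Ddx4 at 5.70 on the oocyte list. These levels do not show whether those complexes were expanded. The member genes thus rose at 8 h while the oocyte and granulosa marker lists fell.

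Theca cells make steroids too. Markers of theca and stroma rose in 1 and fell in 6 of 15 cases at 8 h, and again in 1 and 6 of 15 from 8 h to 16 h. These are 6.67% and 40% each time, against 16.9% and 20.5% of all genes at 8 h and 11.8% and 9.12% afterwards. Their mean level was 7.74 and 7.80 without hCG, 7.25 and 7.49 at 8 h and 6.61 and 6.65 at 16 h. Within the list Hhip rose by 2.83 at 8 h (adjusted p = 4.69e-06; named after its values were seen), and the part of theca cells in the members' changes was not tested. Leukocyte markers had 1 of 15 (6.67%) called higher at 8 h, against 16.9% of all genes. It was Csf1r, which rose by 1.36 (adjusted p = 0.000448). The list had means of 6.44 and 6.56 without hCG and 6.53 and 6.60 at 8 h. From 8 h to 16 h, 12 of 15 (80%) rose and 0 fell (the same at an unadjusted limma p), against 11.8% and 9.12% of all genes. The list means, which include the dim genes, reached 8.03 and 8.04. The pan-leukocyte gene Ptprc went from a dim 5.22 to 7.81, Cd53 from 5.45 to 7.77 and S100a8 from 5.09 to 6.93. These genes passed the filter on the mean of 6 arrays only through their 16 h arrays, so their rises were partly built into the count. Tspo, which macrophages also express, and Akr1c18 rose in the same interval. Tspo had also risen by 1.01 and Akr1c18 by 2.28 at 8 h, and the part of leukocytes in any of these rises was not tested.

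Oviduct epithelium markers fell in 4 of 8 cases at 8 h (50%, against 20.5% of all genes). From 8 h to 16 h they rose in 5 of 8 (62.5%, against 11.8%). Their means were 7.65 and 7.80, then 6.78 and 6.91, then 8.08 and 8.14. Their part in the second rise of Tspo and Akr1c18 was not tested. The oviduct factor genes Pax8 and Foxj1 were dim. Endothelial markers rose in 1 of 5 tested cases at 8 h (20%, against 16.9% of all genes), where the largest change was 2.86. At 16 h against no hCG 2 of 5 (40%) were higher and 1 (20%) lower, against 20.8% each of all genes, with a largest change of 2.96. The listed genes Pecam1, Tek, Tie1, Vwf and Emcn were dim. Means of the whole endothelial list lay between 5.90 and 6.09 on every array and hide these single changes. Of the 5 tested markers of the ovarian surface epithelium 2 (40%) fell at 8 h, against 20.5% of all genes. Of 2 erythrocyte genes 0 were called (1 lower at an unadjusted limma p under 0.05). Cyp17a1, Hsd17b1, Nr5a2, Foxl2 and Fshr are each on a marker list and a pathway list.

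**Figure D5:**
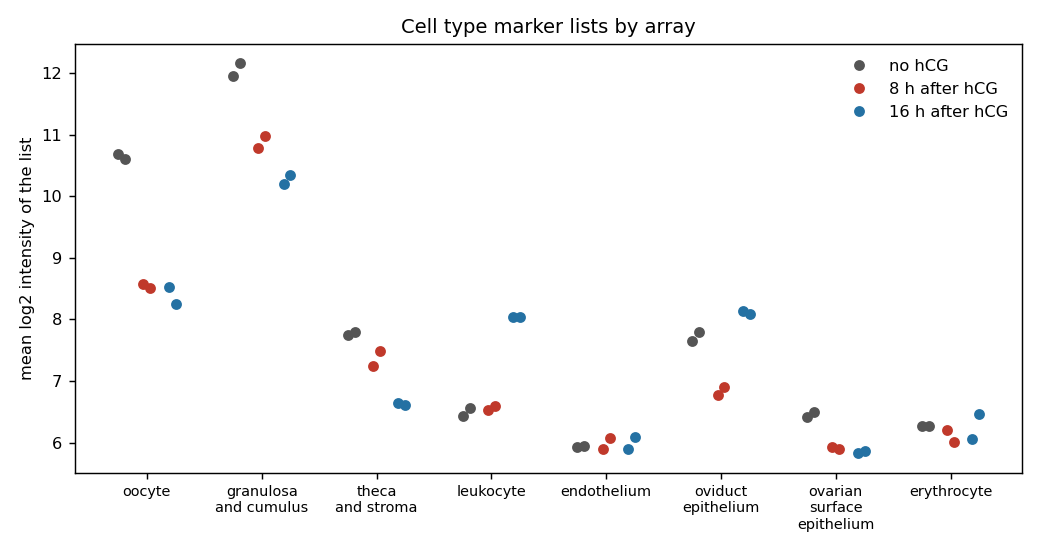
Mean log2 intensity of 8 cell type marker lists (vertical axis) on each of the 6 arrays, coloured by group. Leukocyte markers stand at 8.03 and 8.04 at 16 h against 6.44 to 6.60 on the other arrays, and theca and stroma markers are lowest at 16 h.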

How the data were processed

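Each probe set has 1 log2 intensity per array in the deposited table, taken as given. How the authors corrected background, normalized and summarised the arrays is not given in the sources used here, and the scale was inferred from the range of values. No detection calls were used, so signal over background is unknown. Of 45101 probe sets, 64 controls were left out. The platform table gives 34945 probe sets 1 symbol, 932 several and 9160 none, and those with several named no gene. Arrays were grouped by title. The 27022 probe sets that were not dim, 16 of the 17 member probe sets among them, were fitted with limma 3.58.1 in R 4.3.3 (lmFit and eBayes on 6 arrays, 3 residual and 6.43 prior degrees of freedom). All tests are two-sided, with Benjamini-Hochberg adjustment over these probe sets. The fit was also run on simulated data with far fewer changed probe sets than were called here, and no result rests on that run. Having 2 arrays per group limits the precision.

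The members, lists and motifs were chosen with earlier results of these data known. Named pathway genes are, per list, up to 4 with the largest called change, and each member has its 3 nearest genes. Alternatives were other normalizations, filters, probe set rules and prior variances, a fit of the compared groups, a replicate block, and each array left out.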

Additional observations from a re-analysis of the deposited data

How the results depend on the processing

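Each comparison was recomputed under 15 alternatives. Of the 315 member values so obtained, 314 kept their direction where called and their side of the threshold, and the exception was Cyp11a1 from 8 h to 16 h with the mean of its probe sets (0.62, adjusted p = 0.0194). The counts of called members were 7 in every setting at 8 h, 4 to 5 from 8 h to 16 h and 6 in every setting at 16 h against no hCG. Of the 72 pathway genes, 26 were called from 8 h to 16 h, against 16 to 28 with 1 array left out. In the 8 h group, leaving out replicate 1 gave 16 and leaving out replicate 2 gave 17, and in the 16 h group leaving out replicate 1 gave 16, where the lone array is assumed to vary like the other groups. Over all genes, 2834 were called from 8 h to 16 h, against 1461 to 3553 with 1 array left out. At 8 h the pathway count ranged from 32 to 50 around 44, and at 16 h against no hCG from 33 to 43 around 42.

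Whether the replicate numbers pair the samples cannot be settled with 2 arrays a group. Deviations of equally numbered arrays correlated at 0.47 between no hCG and 8 h. The values were 0.00 between no hCG and 16 h and 0.13 between 8 h and 16 h. With the number as a replicate block, 7, 4 and 6 members were called in the 3 comparisons, as without it. Over all genes the block gave 5512 called at 8 h against no hCG, where 5069 were called without it. It gave 3264 against 2834 from 8 h to 16 h, and 6110 against 5643 at 16 h against no hCG. With 2 arrays a group and no measure of signal over background, changes from a dim level are uncertain in size.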
